A study of Mus musculus with 8 samples.

Results

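The secreted and receptor layer of WNT signalling was described in autochthonous undifferentiated pleomorphic sarcoma (UPS), a soft tissue tumour of mesenchymal origin, with and without HIF-2α. The 38 genes are those of the 26667 in the count table whose symbol is Wnt, Fzd, Sfrp or Dkk followed by a number and, for some, the letter a or b, together with Wif1. They comprise 19 WNT ligands, 10 Frizzled receptors and 9 secreted antagonists. Of these, 21 passed the filter on low counts and were tested, namely 8 ligands, 8 receptors and 5 antagonists.

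WNT proteins are lipid-modified secreted ligands that bind Frizzled receptors on nearby cells. With the co-receptors LRP5 and LRP6 they stabilise β-catenin, which acts with TCF/LEF factors at target genes, and through ROR, RYK and PTK7 they act on cell polarity and movement without β-catenin. Secreted Frizzled-related proteins (SFRP) and WIF1 bind WNT proteins outside the cell, whereas Dickkopf (DKK) proteins 1, 2 and 4 act at LRP5 and LRP6, and DKK3 is a divergent family member that does not bind them in the same way. Mesenchymal cells of muscle and connective tissue both make and receive these signals.

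RNA was sequenced from 8 hind limb tumours, 1 library per tumour, from formalin-fixed sections. The 4 KP mice (KP 5 to KP 8) carried Trp53 fl/fl, and the 4 KPH2 mice (KPH2 1 to KPH2 4) shared the KP genotype and also carried Epas1 fl/fl, the floxed gene of HIF-2α. In both groups tumours were induced with adenovirus expressing Cre in the hind limb muscle. Recombination requires infection by the virus, and which cells of each tumour were recombined was not measured here. All mice were of a mixed 129/C57BL/6 background, of both sexes and 8 weeks old or older at injection, and were killed 7 weeks later or when the tumour reached the size limit. Which of these end points applied to each tumour is not given in the sources used here. The study left 1 tumour out as a technical outlier, which its methods name as a HIF-2α knockout sample. The group sizes that the study prints differ from place to place. KPH2 1 is the tumour missing from the deposited table of 7 tumours, so KPH2 2 to KPH2 4 were compared with the 4 KP tumours, and KPH2 1 is shown apart.

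Total counts per tumour ran from 6463221 to 13155510, of which the 38 genes took between 0.0566% and 0.14%. Epas1 was counted at 59.2, 83.2, 86.9 and 84.1 CPM, which are counts scaled to library sizes adjusted for composition by TMM, in KP 5 to KP 8, at 53.4, 37.7 and 42.5 CPM in KPH2 2 to KPH2 4, and at 32.6 CPM in KPH2 1. Every KPH2 tumour lay below every KP tumour, although the log2 fold change of −0.81 (standard error 0.19) had an adjusted p of 0.0742 by edgeR (quasi-likelihood test, Benjamini-Hochberg). Reads from exons outside the deleted part and from any unrecombined cells would be included in these values. The 26 skeletal muscle markers, such as the fast myosins, summed to 619.8 to 1360 CPM in KP tumours, to 1506 to 6894 CPM in KPH2 2 to 4 and to 565.1 CPM in KPH2 1, and all 26 had positive log2 fold changes over the 7 tumours. The 12 markers of mesenchymal tumour cells and fibroblasts were all detected, at 20540 to 43530 CPM in sum in KP tumours, 22230 to 31180 CPM in KPH2 2 to 4 and 28200 CPM in KPH2 1.

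No member of the WNT family passed the adjusted threshold between KPH2 and KP tumours, whereas 292 of 14867 tested genes (1.96%) did by the quasi-likelihood test of edgeR after Benjamini-Hochberg correction. DESeq2, with 7.25% of all its tested genes called, and limma, with 2.17%, also called 0 of the 21, and edgeR over all 8 tumours, where Wif1 also passed the filter, called 0 of 22 beside 0.00675% of tested genes. At an unadjusted p under 0.05 there were 5 of the 21, against 17.8% of all tested genes. Of these 5, Fzd3 and Fzd6 had positive and Sfrp1, Dkk2 and Fzd5 negative log2 fold changes over the 7 tumours. With 1 tumour left out there were 1 (without KPH2 2), 2 (without KP 8, or without KPH2 4), 3 (without KP 5) and 4 to 6 in the other fits. The median log2 fold change was −0.05 over the 21 and −0.02 over all tested genes, with 10 above 0 and 11 below. The classes differed in this median, which was 0.11 for the 8 ligands, 0.02 for the 8 receptors and −1.26 for the 5 antagonists. The skeletal muscle score, the mean log2 CPM of the muscle markers, was 3.31 to 4.44 in KP tumours and 4.71 to 7.07 in KPH2 2 to 4. It did not overlap between these groups, so muscle score and genotype cannot be told apart in any fit with it as a covariate. With this score as a covariate the median was −0.21 for the ligands, with 5 of 8 below 0. The median was then −0.55 for the receptors, with 6 of 8 below 0, and −1.87 for the antagonists. With 1 tumour left out it ran from −0.15 (without KPH2 3) to 0.15 for the ligands, from −0.17 (without KP 7) to 0.25 for the receptors and from −1.45 to −0.76 (without KP 8) for the antagonists, and it was −0.72 for the antagonists by limma on rlog values. All 5 antagonists tested had negative log2 fold changes, although that of Sfrp4 turned without KP 6 (0.10) or KPH2 4 (0.16). With KPH2 1 included, 4 of the 22 had an unadjusted p under 0.05, against 14.7% of all tested genes, and these 4 were all antagonists, while Wif1 had a positive log2 fold change (0.42, standard error 0.99).

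**Figure D1:**
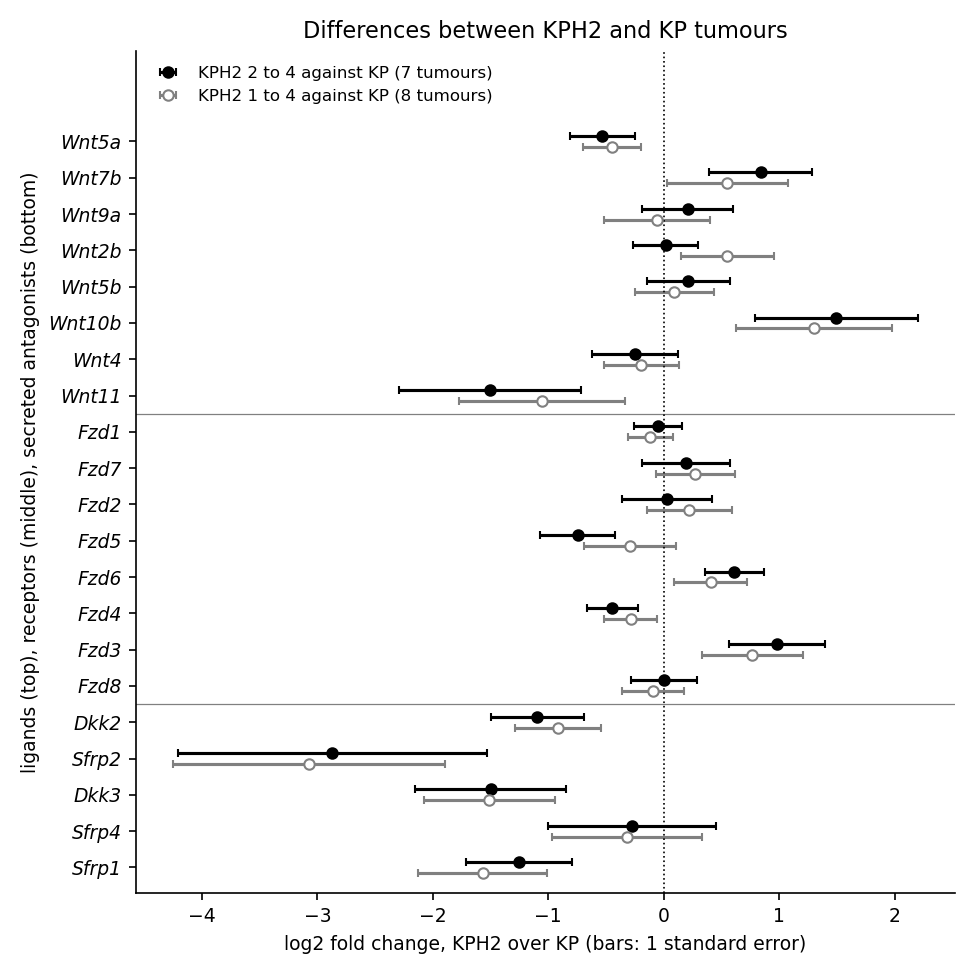
Log2 fold change of the 21 tested WNT family genes between KPH2 and KP tumours on the horizontal axis, with bars of 1 standard error from edgeR, for 7 tumours (filled) and for 8 tumours with KPH2 1 (open). The 5 antagonists at the bottom lie between −2.87 and −0.28 over 7 tumours, while ligands and receptors lie on both sides of 0.

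Groups that did not overlap were found for 3 of the 21, with Fzd6 higher and Fzd4 and Sfrp1 lower in each of KPH2 2 to 4, against 16.9% of all tested genes (8.73% higher and 8.15% lower). With KPH2 1 included, Sfrp1 alone of the 22 kept separate groups, against 8.15% of tested genes. KPH2 1 itself lay within the range of the KP tumours but not of KPH2 2 to 4 for 10 of the 21, within the KPH2 2 to 4 range only for 2 (Sfrp2 and Dkk3), within both for 5 and outside both for 4. The KP range spans 4 tumours and the other 3, so the former is more easily entered. These places were not counted over all genes. Sampling precision was not equal across the family. The standard error of the log2 fold change had a median of 0.39 over the 21, and ran from 0.21 for Fzd1 to 1.34 for Sfrp2. A filter effect also applies to a pair of ligands, since Wnt10b exceeded the filter level of 0.993 CPM in 1 of 4 KP tumours and 3 of 3 KPH2 tumours, and Wnt11 in 4 of 4 KP tumours and 1 of 3 KPH2 tumours. The other 19 exceeded it in all 7 tumours.

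**Figure D2:**
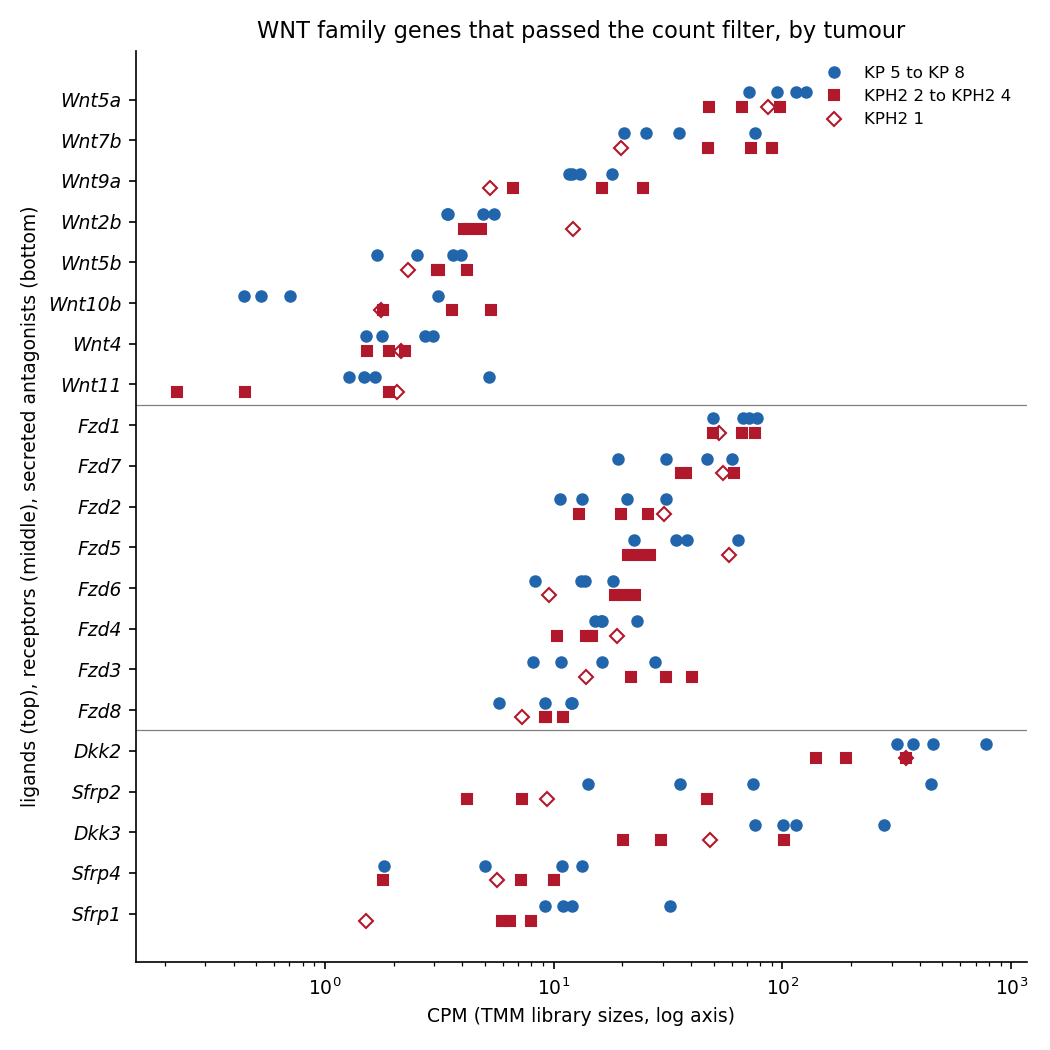
CPM of each tested WNT family gene in each tumour (log axis), with KP tumours as circles, KPH2 2 to 4 as squares and KPH2 1 as an open diamond. Dkk2 is counted at 140 CPM or more in every tumour, Sfrp2 spreads from 4.17 to 445 CPM, and for Sfrp1 all squares and the diamond lie left of the circles.

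HIF-2α binds DNA with ARNT at the core sequences ACGTG and GCGTG, and TCF/LEF factors bind CTTTGAT, so the 250 bases before an annotated transcript start of each gene were searched for these letters on both strands. RefSeq windows (GRCm38.p6) were found for 26 of the 38 genes, 29 windows in all. The start used is that of the RefSeq promoter table and is not always the outermost one, so that 5 of the windows run partly and 8 lie wholly inside the span of their gene. Either HIF core occurred in 17 of the 29 (58.6%), against 38.6% of 32851 windows of the same length over all genes, and ACGTG alone occurred in 17.2% against 16.6%. The excess was of GCGTG, in 51.7% against 28.2%. The windows of WNT family genes were richer in G and C, at a median of 68.0% against 52.4%, and the part of this in the motif counts was not tested. CTTTGAT occurred in 6.9% against 3.21%, in Wnt11 and Wnt5b. The E-box CACGTG, which overlaps ACGTG, occurred in 10.3% against 6.02%. A match describes the letters and is not evidence of binding.

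Windows of 3 members whose values are given below are printed 5′ to 3′ on the strand of the gene, with the HIF core in capitals in either orientation. Dkk2 at chr3:132085042-132085291 (plus strand) is shown as the most abundant antagonist. Fzd5 at chr1:64737751-64738000 (minus strand) is the only receptor with an unadjusted p under 0.05 over the 7 tumours that has a window. Fzd3 and Fzd6, which also have such a p, have no window and were not searched. Fzd9 at chr5:135251048-135251297 (minus strand) is shown as the window with the most matches, and its counts were too low for the filter. In the Fzd9 window capitals run on where cores overlap, as in the E-box.

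Dkk2: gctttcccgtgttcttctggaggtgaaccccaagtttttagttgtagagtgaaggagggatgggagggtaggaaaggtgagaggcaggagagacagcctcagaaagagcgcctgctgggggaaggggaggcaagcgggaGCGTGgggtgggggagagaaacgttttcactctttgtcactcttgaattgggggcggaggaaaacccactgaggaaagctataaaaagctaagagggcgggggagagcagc

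Fzd5: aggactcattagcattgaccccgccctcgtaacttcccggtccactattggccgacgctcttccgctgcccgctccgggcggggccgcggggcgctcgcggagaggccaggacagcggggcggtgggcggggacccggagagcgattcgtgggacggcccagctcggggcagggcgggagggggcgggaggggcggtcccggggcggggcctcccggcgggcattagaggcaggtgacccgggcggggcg

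Fzd9: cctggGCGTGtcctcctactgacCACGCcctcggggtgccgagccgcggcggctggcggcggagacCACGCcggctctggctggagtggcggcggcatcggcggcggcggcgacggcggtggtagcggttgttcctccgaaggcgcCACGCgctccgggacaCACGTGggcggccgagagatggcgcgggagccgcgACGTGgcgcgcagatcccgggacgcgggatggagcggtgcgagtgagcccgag

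Dkk2 held 1 core, 106 bases before the transcript start of its window and 80 bases before the outermost start of the gene, since the last 26 bases of the window lie in the gene span. Fzd5 held 0 and Fzd9 held 7, the nearest 48 bases before the start.

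Among the ligands, Wnt5a and Wnt7b carried most of the signal. Per kilobase of transcript, which allows levels of different genes to be compared, Wnt5a averaged 12.6 ± 3.70 CPM per kb (SD, n = 8) and Wnt7b 11.6 ± 6.65, ahead of Wnt9a with 4.05 ± 1.87. These averages of Wnt5a and Wnt7b lie within their spread over tumours. The order changed from tumour to tumour. Wnt5a was the leading ligand in KP 5, KP 6, KP 8 and KPH2 1, with between 45.7% and 51.5% of the summed ligand level per kb, and Wnt7b led in KP 7 and in KPH2 2 to KPH2 4, with between 40.6% and 50.6%. The summed level was 33.8 ± 6.09 CPM per kb in KP (SD, n = 4), 37.6 ± 11.4 in KPH2 2 to 4 (SD, n = 3) and 26.3 in KPH2 1, with overlapping groups.

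Wnt5a, on chromosome 14 (28504543 to 28527448, GRCm38.p6), is the ligand best known for signalling through ROR2 without β-catenin. Its CPM values were 127, 94.5, 71.6 and 115 in KP 5 to KP 8, 47.7, 97.8 and 66.6 in KPH2 2 to KPH2 4, and 86.8 in KPH2 1. KPH2 2 and 4 lay below all KP tumours, while KPH2 3 and KPH2 1 lay among them. This gave a log2 fold change of −0.53 (standard error 0.28, edgeR adjusted p = 0.369), with −0.31 without KPH2 2, −0.84 without KPH2 3 and −1.07 with the skeletal muscle score as a covariate.

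Wnt7b, on chromosome 15 (85535437 to 85581821), is a ligand of epithelia and developing bone that can act through β-catenin. KP 5 to KP 8 held 35.5, 20.4, 76.1 and 25.4 CPM, KPH2 2 to KPH2 4 held 73.1, 89.9 and 47.4 CPM, and KPH2 1 held 19.7 CPM. KPH2 2 to 4 exceeded KP 5, 6 and 8, KP 7 lay within their range, and KPH2 1 was the lowest of the 8. On the log2 scale the difference was 0.84 (standard error 0.45, edgeR adjusted p = 0.382), and 0.55 (standard error 0.53) with KPH2 1. Without KP 7 it was 1.36 (standard error 0.30, edgeR adjusted p = 0.0958). The long non-coding gene AU022754 overlaps the span of Wnt7b by 680 bases. The strand setting of the counting is not given in the sources used here, so that reads of overlapping genes may be mixed, here and for Wnt9a (Gm51865, 4359 bases), Wnt5b (4 genes, up to 12190 bases), Wnt11 (Gm33770, 1012 bases), Wnt2b (St7l, 4524 bases) and Fzd3 (2 pseudogenes, 851 and 958 bases).

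Wnt9a, a ligand of developing joints and skeleton on chromosome 11 (59306849 to 59333552), reached 12.997, 12.03, 18.1 and 11.7 CPM in KP 5 to KP 8, 16.2, 24.5 and 6.65 CPM in KPH2 2 to KPH2 4, and 5.27 CPM in KPH2 1. KPH2 4 and KPH2 1 lay below all KP tumours and KPH2 3 above them. By edgeR the log2 fold change was 0.21 (standard error 0.39) over 7 tumours and −0.06 (standard error 0.46) over 8, so that its sign turned with KPH2 1, as it did with KPH2 3 left out (−0.25) and with the muscle score as a covariate (−1.04).

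The other 5 tested ligands were counted at between 0.225 and 12.1 CPM. Wnt10b, a ligand that acts through β-catenin and holds back fat cell formation, lay at 3.12 CPM in KP 5 and at 0.707, 0.445 and 0.528 CPM in KP 6, 7 and 8. It lay at 3.60, 5.30 and 1.80 CPM in KPH2 2 to KPH2 4, and at 1.76 CPM in KPH2 1. KP 5 was the single KP tumour within the KPH2 range. The fitted log2 fold change was 1.49 (standard error 0.71, edgeR adjusted p = 0.316), and without KP 5 it was 2.66 with an edgeR adjusted p of 0.0479 (Benjamini-Hochberg), the single call among the members in any setting tried. No KP tumour but KP 5 exceeded the filter level, so that in the fit without it Wnt10b passed the filter only through the group where it is high.

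With the skeletal muscle score as a covariate the estimate for Wnt10b was −0.36. The muscle markers lay higher in KPH2 2 to 4 but not in KPH2 1, as given above. The epidermal marker list also lay higher, with its summed level at 4.10 to 6.02 CPM in KP tumours, 10.5 to 17.7 CPM in KPH2 2 to 4 and 3.44 CPM in KPH2 1. Of its 9 genes the 3 tested had positive log2 fold changes, and 4, the keratins Krt1, Krt5, Krt14 and Krt15, were at 0 in all 8 tumours. The part of the epidermal list in the values of Wnt7b and Wnt10b was not tested.

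Wnt11, known for its role in cell movement in the early embryo, had a log2 fold change of −1.50 (standard error 0.79) from 1.27 to 5.20 CPM in KP tumours, 0.225 to 1.90 CPM in KPH2 2 to 4 and 2.08 CPM in KPH2 1. The value was −0.76 without KP 5, −2.79 without KPH2 3 and −4.70 with the muscle score as a covariate. Wnt2b, Wnt4 and Wnt5b had log2 fold changes of 0.02, −0.25 and 0.21, each smaller than its standard error of 0.28, 0.37 and 0.36. Wnt2b reached 12.1 CPM in KPH2 1 and 3.41 to 5.52 CPM in the other 7 tumours.

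The remaining 11 ligands did not pass the filter. Wnt16 was found at up to 32 counts (KP 5), Wnt10a at up to 37 counts (KP 8) and Wnt2 at up to 24 counts (KP 8). All 3 peaked in a KP tumour, and their groups overlapped. Wnt1, Wnt3, Wnt6, Wnt7a, Wnt8a, Wnt8b and Wnt9b stayed at 5 counts or fewer in every tumour. Wnt3a had 0 counts in all 8, which allows at most 0.223 to 0.445 CPM per tumour (3 counts, covering counting error only). Several of these genes lie beside a better expressed ligand on the same chromosome. Wnt1 had 6 counts over the 8 tumours and Wnt10b, 11650 bases away on chromosome 15, had 188. Wnt6 had 5 and Wnt10a, 6696 bases away on chromosome 1, had 90. Wnt3a had 0 and Wnt9a, 16097 bases away on chromosome 11, had 1087. The fourth such pair, Wnt3 and Wnt9b on chromosome 11, whose spans overlap by 1098 bases, was near 0 on both sides, with 1 and 8 counts.

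Receptor levels kept the same leading genes throughout. Fzd1 was the leading receptor per kb in all 8 tumours and Fzd7 the second in all 8, with averages of 15.2 ± 2.77 and 9.60 ± 3.31 CPM per kb (SD, n = 8). Fzd2 and Fzd5 followed with 5.62 ± 2.17 and 5.22 ± 2.404, within their spread of each other, then Fzd6 with 3.55 ± 1.18, Fzd4 with 2.398 ± 0.559, Fzd3 with 1.67 ± 0.870 and Fzd8 with 1.58 ± 0.367. The summed receptor level was 44.3 ± 9.92 CPM per kb in KP (SD, n = 4), 45.6 ± 6.42 in KPH2 2 to 4 (SD, n = 3) and 49.0 in KPH2 1.

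Fzd1, Fzd2 and Fzd7 form 1 sequence subfamily and bind many WNT ligands. Fzd1, on chromosome 5 (4753839 to 4758216), reached 71.8, 67.1, 49.5 and 77.7 CPM in KP 5 to KP 8, 66.9, 76.1 and 49.8 CPM in KPH2 2 to KPH2 4, and 52.9 CPM in KPH2 1. The groups overlapped almost wholly, with a log2 fold change of −0.05 (standard error 0.21), and −0.69 (standard error 0.28, edgeR adjusted p = 0.636) with the muscle score as a covariate. Fzd7, on chromosome 1 (59482147 to 59486955), was counted at 60.2, 19.1, 31.1 and 46.9 CPM in the same KP tumours, at 61.4, 36.2 and 38.1 CPM in KPH2 2 to KPH2 4, and at 54.9 CPM in KPH2 1. KPH2 2 lay just above KP 5 and the rest were mixed, with a log2 fold change of 0.20 (standard error 0.38), and −0.47 (standard error 0.59) with the muscle score as a covariate.

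Fzd2, on chromosome 11 (102604431 to 102608058), reached 30.9, 13.3, 10.7 and 20.9 CPM in KP 5 to KP 8, 19.6, 25.9 and 12.96 CPM in KPH2 2 to KPH2 4, and 30.4 CPM in KPH2 1. These groups overlapped too, with a log2 fold change of 0.03 (standard error 0.39). With the muscle score as a covariate it turned to −1.22 (standard error 0.43, edgeR adjusted p = 0.553).

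Fzd3 and Fzd6, which form another subfamily and serve planar cell polarity in hair, skin and axons, both had positive log2 fold changes. Fzd6, on chromosome 15 (39006149 to 39038192), reached 13.1, 18.3, 8.30 and 13.7 CPM in KP 5 to KP 8, 18.6, 20.0 and 22.8 CPM in KPH2 2 to KPH2 4, and 9.51 CPM in KPH2 1. KPH2 2 to 4 each exceeded every KP tumour, by a small margin for KP 6 and KPH2 2, and KPH2 1 lay among the KP tumours. Between the groups the log2 fold change was 0.61 (standard error 0.26, edgeR adjusted p = 0.262), and 0.41 (standard error 0.31) with KPH2 1.

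Fzd3, on chromosome 14 (65192441 to 65262463), reached 8.17, 27.9, 16.3 and 10.8 CPM in KP 5 to KP 8, 21.7, 40.3 and 30.9 CPM in KPH2 2 to KPH2 4, and 13.9 CPM in KPH2 1. KP 6 lay above KPH2 2, and the other KP tumours and KPH2 1 lay below KPH2 2 to 4. This gave a log2 fold change of 0.98 (standard error 0.42, edgeR adjusted p = 0.270). With the skeletal muscle score as a covariate the estimates were 1.46 for Fzd3 and 0.72 for Fzd6, each with an edgeR unadjusted p above 0.1. A long non-coding gene overlaps the Fzd6 span by 921 bases.

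Fzd5 and Fzd4 had negative log2 fold changes. Fzd5, a receptor for WNT5A and WNT7B among others, lies on chromosome 1 (64730558 to 64737750) and reached 63.8, 22.5, 38.4 and 34.1 CPM in KP 5 to KP 8, 23.7, 26.5 and 21.1 CPM in KPH2 2 to KPH2 4, and 58.5 CPM in KPH2 1. KP 6 lay among KPH2 2 to 4, and KPH2 1 lay above every KP tumour but KP 5. On the log2 scale the difference was −0.75 (standard error 0.32, edgeR adjusted p = 0.277), and −0.29 (standard error 0.40) with KPH2 1. It was −0.41 without KP 5 and −1.31 with the muscle score as a covariate.

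Fzd4, the receptor of Norrin in blood vessel growth, lies on chromosome 7 (89404366 to 89410110) and reached 16.2, 23.2, 16.3 and 15.2 CPM in KP 5 to KP 8, 14.8, 13.9 and 10.4 CPM in KPH2 2 to KPH2 4, and 18.9 CPM in KPH2 1. KPH2 2 to 4 lay below every KP tumour, KPH2 2 by a small margin, and KPH2 1 lay above 3 of the 4. By edgeR the log2 fold change was −0.44 (standard error 0.22, edgeR adjusted p = 0.347), with −0.29 without KP 6 and with KPH2 1. The 8 endothelial markers summed to 283.5 to 560.2 CPM in KP tumours, to 301.8 to 309.7 CPM in KPH2 2 to 4 and to 212 CPM in KPH2 1, and 6 of the 8 had negative log2 fold changes. Their part in the Fzd4 values was not tested. The protein-coding gene Tmem135 overlaps the Fzd4 span by 338 bases.

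Fzd8, of the same subfamily as Fzd5, had a log2 fold change of 0.00 (standard error 0.29), and −0.49 (standard error 0.45) with the muscle score as a covariate, at 5.78 to 11.999 CPM over the 8 tumours. Fzd9 and Fzd10, also a subfamily, did not pass the filter over the 7 tumours. In an edgeR fit with no filter their log2 fold changes were 1.64 (standard error 0.69, adjusted p = 0.310) and 1.90 (standard error 0.72, adjusted p = 0.253). Fzd9 had 3, 3, 2 and 3 counts in KP 5 to KP 8, 5, 18 and 4 counts in KPH2 2 to KPH2 4, and 6 counts in KPH2 1. As CPM every KPH2 tumour lay above every KP tumour, while 8.15% of tested genes had separate groups over 8 tumours. The margin was small and near the floor, with KP 6 at 0.424 CPM and KPH2 2 and KPH2 4 at 0.450 and 0.451 CPM. KPH2 3 supplied most of the KPH2 counts. Fzd10 had 7, 0, 6 and 4 counts in the KP tumours, 27, 9 and 13 in KPH2 2 to KPH2 4, and 1 in KPH2 1, so that its separation held without KPH2 1.

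Summed per kb, the antagonists were the most abundant class in all 8 tumours. Dkk2 averaged 99.2 ± 52.3 CPM per kb (SD, n = 8), ahead of Sfrp2 with 39.7 ± 74.6 and Dkk3 with 28.6 ± 24.2, which did not differ beyond their spread. The Sfrp2 average rests on KP 7 (222 CPM per kb), was 13.7 ± 13.1 (SD, n = 7) without it, and Dkk3 exceeded Sfrp2 in 7 of the 8 tumours. Dkk2 was the leading antagonist in every tumour but KP 7, where Sfrp2 held 58.4% of the summed level. That sum was 251.3 ± 101 CPM per kb in KP (135.7 to 380, SD, n = 4), 91.0 ± 17.4 in KPH2 2 to 4 (71.2 to 103.9, SD, n = 3) and 116 in KPH2 1, so that all 4 KPH2 tumours lay below all KP tumours. No test was run on this sum. Since the RNA is of whole sections, fewer cells of a type and less RNA per cell cannot be told apart.

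**Figure D3:**
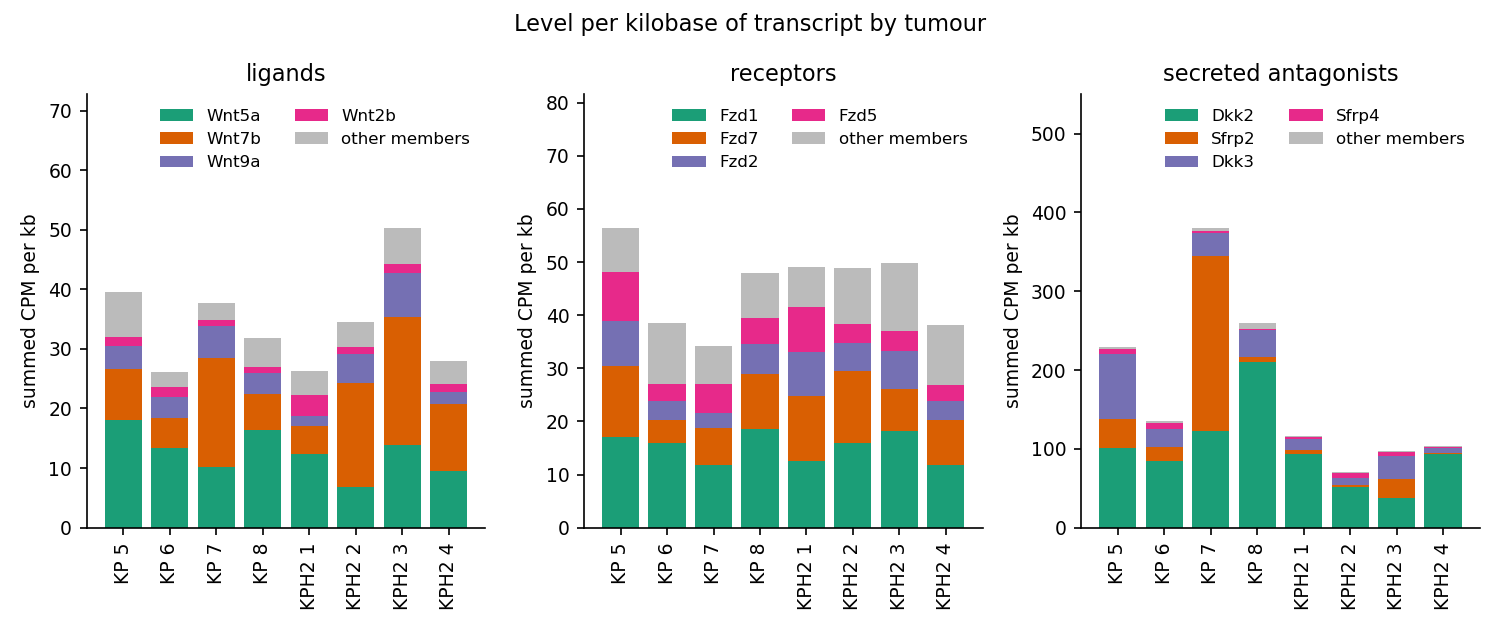
Summed CPM per kb of transcript for ligands, receptors and secreted antagonists in each tumour, stacked by the 4 leading genes of each class and the others. Bars start at 0. The antagonist sum runs from 135.7 to 380 in KP and from 71.2 to 116 in KPH2 tumours, Wnt7b exceeds Wnt5a in KP 7 and KPH2 2 to 4, and the receptor sum runs from 34.1 to 56.4 throughout.

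Dkk2, on chromosome 3 (132085266 to 132180304), encodes a ligand of LRP5 and LRP6 that blocks or in some settings favours β-catenin signalling. Counts came to 373, 316, 453 and 778 CPM in KP 5 to KP 8, 189, 140 and 345 CPM in KPH2 2 to KPH2 4, and 346 CPM in KPH2 1. KPH2 2 and 3 lay below all KP tumours, and KPH2 4 and KPH2 1 lay between KP 6 and KP 5. The fitted log2 fold change was −1.10 (standard error 0.40, edgeR adjusted p = 0.208), and −0.91 (standard error 0.37, adjusted p = 0.307) with KPH2 1.

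Sfrp1, on chromosome 8 (23411383 to 23449632), encodes a decoy that binds WNT proteins through a Frizzled-like domain. Its CPM values were 10.99, 9.20, 12.01 and 32.3 in KP 5 to KP 8, 5.94, 8.01 and 6.42 in KPH2 2 to KPH2 4, and 1.52 in KPH2 1. All 4 KPH2 tumours lay below all 4 KP tumours, with KP 6 and KPH2 3 close to each other and KP 8 standing high. Between the groups the log2 fold change was −1.26 (standard error 0.46, edgeR adjusted p = 0.204, the lowest of the 21), and it was −1.57 (standard error 0.56, adjusted p = 0.263) with KPH2 1 and −0.66 without KP 8.

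Sfrp2, on chromosome 3 (83765750 to 83774314), encodes a related decoy made by fibroblasts. KP 5 to KP 8 held 74.6, 35.5, 445 and 14.2 CPM, KPH2 2 to KPH2 4 held 7.29, 46.7 and 4.17 CPM, and KPH2 1 held 9.35 CPM. KP 7 stood far above the rest, KPH2 3 lay among the KP tumours, and the other KPH2 tumours lay below them. The log2 fold change of −2.87 had a standard error of 1.34 (edgeR adjusted p = 0.313), the widest of the 21. It rests on single tumours, with −1.10 without KP 7 and −4.62 without KPH2 3.

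Dkk3, on chromosome 7 (112116019 to 112159482), reached 278, 76.0, 101 and 115 CPM in KP 5 to KP 8, 29.5, 102 and 20.2 CPM in KPH2 2 to KPH2 4, and 48.2 CPM in KPH2 1. KPH2 3 alone of the KPH2 tumours reached the KP range. This gave a log2 fold change of −1.50 (standard error 0.66, edgeR adjusted p = 0.284), and −1.51 (standard error 0.57, adjusted p = 0.279) with KPH2 1. It was −2.52 without KPH2 3 and −0.94 without KP 5.

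Sfrp4, a decoy with a part in bone remodelling, was counted at 1.81 to 13.3 CPM in KP tumours, 1.80 to 10.1 CPM in KPH2 2 to 4 and 5.67 CPM in KPH2 1, with a log2 fold change of −0.28 (standard error 0.73). Wif1 had 13, 6, 1 and 0 counts in the KP tumours, 12, 12 and 1 in KPH2 2 to KPH2 4, and 3 in KPH2 1. It passed the filter only over all 8 tumours, where its log2 fold change was 0.42 (standard error 0.99, edgeR adjusted p = 0.887). Dkk1, Dkk4 and Sfrp5 stayed at 4 counts or fewer in every tumour. The class of antagonists was thus carried by 5 of its 9 genes.

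Marker lists of other cell types are given beside the antagonists. In the list for mesenchymal tumour cells and fibroblasts, 10 of 12 genes had negative log2 fold changes, with a median of −0.42, while their sums overlapped between the groups as given above and 1 gene passed the adjusted threshold. This was Pdgfra, a receptor of fibroblasts and mesenchymal progenitors, which fell from 996.5 to 245.4 CPM on average (log2 fold change −2.02, edgeR adjusted p = 0.0183 with Benjamini-Hochberg adjustment). Its level in KPH2 1 was 639 CPM, and with KPH2 1 included 0 genes of this list passed by edgeR. All 9 macrophage markers counted had negative log2 fold changes and none passed the adjusted threshold of edgeR, with 4 at an unadjusted p under 0.05. Their sums were 2333 to 4244 CPM in KP tumours, 1714 to 2552 CPM in KPH2 2 to 4 and 2177 CPM in KPH2 1. The part of either list in the antagonist values was not tested. With the skeletal muscle score as a covariate the estimates of the 5 antagonists were also negative, with a median of −1.87. Those of Sfrp2 (−3.99, standard error 4.01), Sfrp4 (−1.69, standard error 1.63) and Dkk2 (−0.58, standard error 0.61) lay within about their standard errors of 0, and Dkk3 (−3.75, standard error 0.71) and Sfrp1 (−1.87, standard error 0.76) had edgeR adjusted p-values of 0.253 and 0.641.

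The other genes of the pathway were taken as 7 lists of 94 genes, of which 90 were in the count table and 80 were tested. Of these 80, 41 had positive and 39 negative log2 fold changes, with a median of 0.06, and 3 passed the adjusted threshold of edgeR, 2 higher (1.24% of all tested genes) and 1 lower (0.72%). At an unadjusted p under 0.05 there were 9 higher (8.5% of all tested genes) and 10 lower (9.26%). DESeq2 called 13 over the 7 tumours, beside 7.25% of all its tested genes. With KPH2 1 included, edgeR called 0 of them and DESeq2 called 4, beside 3.94%. By edgeR over the 7 tumours there were also 0 calls with the muscle score as a covariate and without KPH2 2, and 1 without KP 6, without KP 7 or without KPH2 4.

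Lgr6, an R-spondin receptor of stem cells in skin, reached 12.7, 4.24, 5.34 and 8.07 CPM in KP 5 to KP 8, 55.4, 40.7 and 60.1 CPM in KPH2 2 to KPH2 4, and 2.64 CPM in KPH2 1. The groups were far apart but for KPH2 1, which was the lowest of the 8. On the log2 scale the difference was 2.75 (standard error 0.36, edgeR adjusted p = 0.0181 by Benjamini-Hochberg).

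Porcn, the acyltransferase that adds the lipid without which WNT proteins are not secreted, showed the same arrangement. It was counted at 4.68, 4.81, 4.15 and 5.96 CPM in the KP tumours, at 9.72, 12.4 and 12.4 CPM in KPH2 2 to KPH2 4, and at 2.64 CPM in KPH2 1, and it rose by 1.22 on the log2 scale over the 7 tumours (standard error 0.23, edgeR adjusted p = 0.0398 by Benjamini-Hochberg). Wls, which carries lipid-bearing WNT proteins to the cell surface, had a log2 fold change of −0.03 (standard error 0.23) and was named after its value was seen.

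Prickle2, a component of planar cell polarity, was counted at 105, 55.9, 65.4 and 60.8 CPM in the KP tumours, at 20.3, 28.3 and 33.5 CPM in KPH2 2 to KPH2 4, and at 72.1 CPM in KPH2 1. KPH2 2 to 4 lay below every KP tumour and KPH2 1 among them, and it fell by 1.39 on the log2 scale (standard error 0.28, edgeR adjusted p = 0.0461 by Benjamini-Hochberg). All 3 called genes thus had KPH2 1 on the KP side or beyond it.

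**Figure D4:**
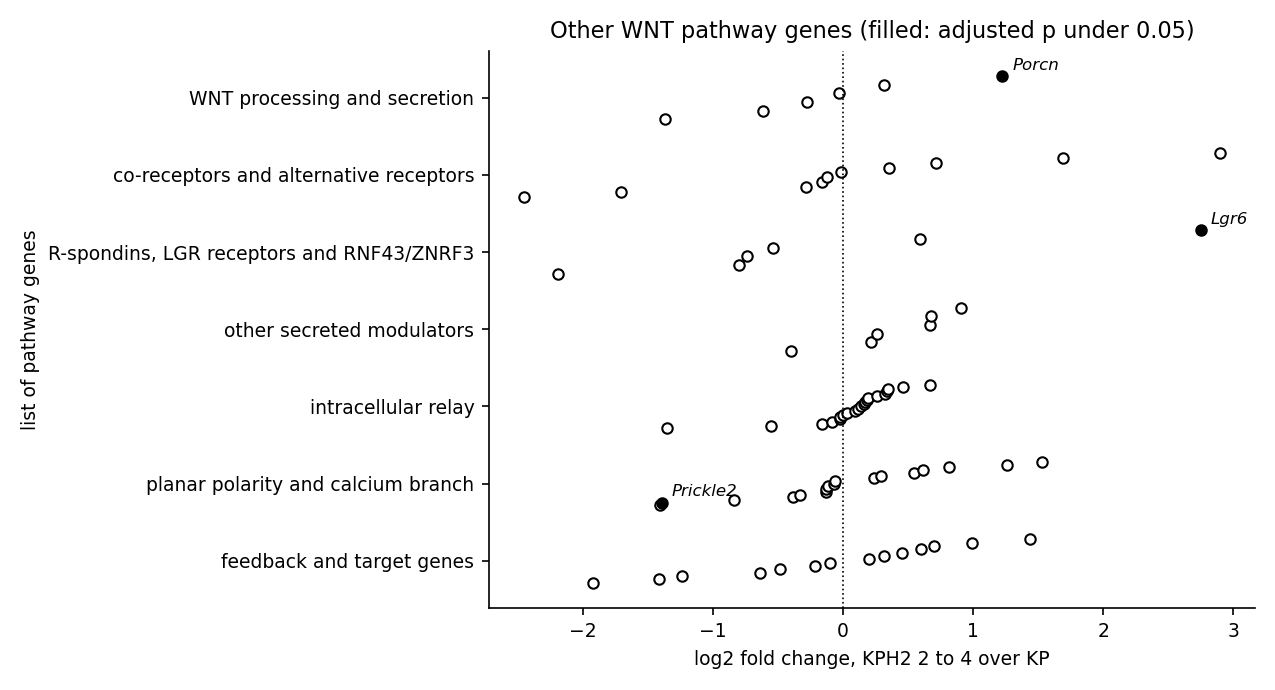
Log2 fold change between KPH2 2 to 4 and KP tumours of 80 other WNT pathway genes in 7 lists, with 1 point per gene, spread vertically within a list by rank. Filled points mark the 3 genes with an edgeR adjusted p under 0.05, Lgr6 at 2.75, Porcn at 1.22 and Prickle2 at −1.39, and the intracellular relay list lies close to 0 with a median of 0.14.

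The next genes by p did not pass the threshold. Musk, a receptor kinase of the neuromuscular junction and itself a muscle gene, had a log2 fold change of 2.90 (edgeR adjusted p = 0.0706). Tle4, a co-repressor of TCF/LEF factors, lay at 25.9 to 53.2 CPM in KP tumours, 11.8 to 15.9 CPM in KPH2 2 to 4 and 21.2 CPM in KPH2 1 (log2 fold change −1.36, edgeR adjusted p = 0.0572), lower in all 4 KPH2 tumours. Ror2, the receptor of Wnt5a named above, lay at 57.2, 20.4, 32.8 and 23.5 CPM in KP 5 to KP 8, at 2.07, 11.8 and 4.51 CPM in KPH2 2 to KPH2 4, and at 31.1 CPM in KPH2 1 (log2 fold change −2.45, standard error 0.62, edgeR adjusted p = 0.0896). KPH2 2 to 4 lay below all KP tumours while KPH2 1 lay among them.

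Of the 16 feedback and target genes counted, 14 were tested and 0 passed, with 7 on each side of 0 and a median of 0.05. At an edgeR unadjusted p under 0.05 there were 1 higher (8.5% of all tested genes) and 2 lower (9.26%). Axin2, a general target and brake of β-catenin signalling, was picked out after its values were seen. Counts came to 34.6, 10.04, 32.6 and 8.68 CPM in KP 5 to KP 8, 2.79, 11.1 and 3.04 CPM in KPH2 2 to KPH2 4, and 7.91 CPM in KPH2 1. KPH2 3 lay above KP 6 and KP 8, and the other KPH2 tumours lay below all KP tumours (log2 fold change −1.93, standard error 0.71, edgeR adjusted p = 0.208). Of the 21 relay genes, such as Ctnnb1, which encodes β-catenin, with a log2 fold change of −0.16 (standard error 0.25), 14 lay above and 7 below 0 and none passed by edgeR, with 1 at an unadjusted p under 0.05. By list, the numbers above and below 0 were 2 and 4 for processing and secretion, 4 and 6 for co-receptors and alternative receptors, 2 and 4 for R-spondins with their receptors, 5 and 1 for other secreted modulators, and 7 and 10 for the polarity and calcium branch.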

How the data were processed

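RNA from sections of 8 formalin-fixed UPS tumours was sequenced from stranded, ribosome-depleted libraries. Raw counts per gene were deposited by the authors, with reads placed on GRCm38 by STAR 2.4 and uniquely aligned reads assigned to RefSeq genes by HTSeq 0.6.1, and log2 values from the regularized log (rlog) transformation of DESeq2 1.6 were deposited by the authors for 7 and for 8 tumours. Whether counting used strand is not given in the sources used here.

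Counts of 14867 genes (filter: minimum count 10, minimum total 15) were tested in R 4.3.3 with edgeR 4.0.16 (TMM, robust quasi-likelihood test, no covariates, Benjamini-Hochberg adjustment over all tested genes, threshold 0.05) for KPH2 2 to 4 against KP 5 to 8. Over 8 tumours 14805 genes were tested. CPM used TMM library sizes over all 8 tumours, and CPM per kb divided these by the union of annotated exons of GENCODE M21 transcripts that are paired with curated RefSeq transcripts. Positions are those of RefSeq for GRCm38.p6. Alternatives were all 8 tumours, other scalings and filters, DESeq2 1.42.0, limma 3.58.1 on the deposited rlog values, edgeR without robust estimates, the mean log2 CPM (prior count 2) of 26 skeletal muscle markers as a covariate, and leaving out each tumour. The tests were tried on simulated counts for the 7 tumours, with 200 genes among 14867 changed by 2 on the log2 scale. There edgeR recovered 150 and made 12 false calls, DESeq2 177 and 55, and limma, run on log2 CPM and not on rlog values, 152 and 14. With no gene changed, edgeR and limma made 0 false calls and DESeq2 made 13. Of the tested members only Sfrp2 had a log2 fold change as large as that simulated, and recovery of smaller changes was not tried.

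The members and lists were chosen with earlier results of these data known. Values in every tumour are given for members with an unadjusted p under 0.05 or separate groups and for the 3 highest per kb in each class, and, of the pathway lists, for genes past the adjusted threshold, with the 3 smallest p in each direction named. A further allele that both groups carry is not reported here. The labels give 1 library per tumour, and p-values measure the spread between these tumours.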

Additional observations from a re-analysis of the deposited data

Results flagged for a closer look

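Of 42 groups of 4 tumours examined, 2 held a tumour set apart from the other 3 by more than Dixon's 95% critical value, and chance flags about 1 in 20 groups. Fzd4 lay at 23.2 CPM in KP 6 and at 15.2 to 16.3 CPM in the other KP tumours, with a ratio of gap to range of 0.84 in log2 CPM, the scale on which the ratios were taken. Wnt2b lay at 12.15 CPM in KPH2 1 and at 4.05 to 4.80 CPM in KPH2 2 to 4, with a ratio of 0.847 in log2 CPM. The span of Wnt2b overlaps that of the protein-coding gene St7l by 4524 bases.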

How the results depend on the processing

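No paired analysis was run, because the tumours came from separate mice and no link between KP and KPH2 mice is given in the sources used here. Across the settings, 12 of the 21 members kept their direction in all that could be fitted and 9 changed it in at least 1. The latter had log2 fold changes between −0.28 and 0.21, except Wnt10b. The 292 genes called over all genes became 1 with all 8 tumours, 3 with the muscle covariate, 1178 by DESeq2 and 643 by DESeq2 over 8 tumours, and 55 (without KPH2 2) to 349 (without KP 5) with 1 tumour left out, with 73 without KP 7, 130 without KP 6 and without KP 8, 153 without KPH2 4 and 159 without KPH2 3. Members called stayed at 0 except 1 without KP 5 (range 0 to 1), which was Wnt10b at a log2 fold change of 2.66, over the filter level then in KPH2 tumours only. Those of the 21 members with an unadjusted p under 0.05 numbered 8 by DESeq2 and 1 to 6 with 1 tumour left out, namely 3 without KP 5, 2 without KP 8, 1 without KPH2 2 and 2 without KPH2 4. Called pathway genes numbered 0 with all 8 tumours, 0 with the muscle covariate, 13 by DESeq2 and 0 to 3 with 1 tumour left out, namely 0 without KPH2 2 and 1 without KP 6, without KP 7 or without KPH2 4. Epas1 passed by DESeq2 (−0.81, adjusted p = 0.0115), by DESeq2 over 8 tumours (−0.91, adjusted p = 0.00575) and by edgeR without KP 5 (−0.92, adjusted p = 0.0442), in a range of −0.97 to −0.71 with 1 tumour left out. The cause of these shifts was not tested.

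The sign turned with the muscle covariate for Fzd2 (−1.22), Fzd7 (−0.47), Fzd8 (−0.49), Wnt10b (−0.36), Wnt2b (−0.054), Wnt4 (0.008) and Wnt9a (−1.04), with all 8 tumours for Fzd8 (−0.093) and Wnt9a (−0.056), by DESeq2 over 8 tumours for Fzd8 (−0.098) and Wnt9a (−0.050), and for Fzd8 with upper-quartile factors (−0.003) and a mean count of at least 50 (−0.004). With 1 tumour left out it turned in some fits for Fzd1 (−0.19 to 0.10), Fzd2 (−0.23 to 0.38), Fzd7 (−0.088 to 0.49), Fzd8 (−0.18 to 0.12), Sfrp4 (−0.77 to 0.16), Wnt2b (−0.082 to 0.15) and Wnt9a (−0.25 to 0.57), given as ranges over the 7 fits. The mean count of at least 50 left 3 ligands. No scaling moved the median of all genes by over 0.1. At 1 count a library resolves 0.0743 to 0.148 CPM, which limits what can be said of the 17 members not tested over the 7 tumours.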
